A study of Mus musculus with 13 samples.

Results

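Genes that encode or join the transcription factor AP-1 were followed through the H3K27ac peak lists of mouse melanoma cell lines, and they were taken as a named set of 10 among 55450 annotated genes. The set held the FOS family genes Fos, Fosb, Fosl1 and Fosl2, the JUN family genes Jun, Junb and Jund, and the related genes Atf3, Batf3 and Maff. For each gene the peaks that overlapped its annotated body or the 20 kb on either side were collected, and the promoter counted as called in a line if any peak came within 1 kb of one of its annotated start sites. Of the 10 genes, 9 had at least 1 peak in this window and Batf3 had none in any list.

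AP-1 is a dimer of basic leucine zipper proteins. A JUN protein pairs with itself or with a FOS protein, and ATF, BATF and small MAF proteins join the same network through their zippers. Many of these genes are immediate early genes, which means that growth factors and stress switch them on within minutes through MAP kinases and without new protein synthesis, and oncogenic RAS feeds the same kinases. In melanoma AP-1 is known for its link with poorly differentiated, invasive cell states. H3K27ac, the acetylation of lysine 27 on histone H3, marks active promoters and enhancers, so the lists show where chromatin around these genes was marked and not how much RNA or protein they made.

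The lines came from melanomas of mice that carried the Tyr::NRAS Q61K/° transgene, which drives mutant NRAS from the tyrosinase promoter of the pigment lineage, on a Cdkn2a+/− background, and all mice were Cdh1 F/F. ΔEcad mice also carried Tyr::CreA/°, which deletes the floxed E-cadherin gene Cdh1 in melanocytes, and Ecad mice had no Cre. The question was whether losing E-cadherin has a different effect on active chromatin in the 2 sexes. The male Ecad lines were Ma_1007 and Ma_1181, the female Ecad lines Ma_1014 and Ma_1039, the male ΔEcad lines Ma_1062 and Ma_1456, and Ma_1057, Ma_1064 and Ma_1069 were from ΔEcad females, and values are given in that order throughout. Each line gave 1 list from 1 culture, so the spread between lines includes differences between tumours.

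The lists held 20741 peaks in Ma_1069 to 41663 in Ma_1007, with a median peak width of 943 to 1019 bp in the female ΔEcad lines and 1059 to 1195 bp in the other 6 lines. Of the 16471 genes with a called promoter in any list, 46 to 60.5% were called in a female ΔEcad list and 67.7 to 87.6% in another list. Read counts were not in the lists, so library depth is unknown, and a missing peak is a region below the calling threshold rather than a region without the mark, and fewer cells with the mark and less of the mark per cell cannot be told apart. Where these genes had lower values in the female ΔEcad lines, the same lines also had that lower share of called promoters. The part of that share in each result was not tested beyond the alternatives given with it. Melanocyte marker promoters were called at 6 of 6 genes in every line, with Mitf at percentile 96.5 to 99.7, whereas 0 of 4 leukocyte and 0 of 3 endothelial markers were called in any line, Krt10 was called in 5 lists as the only 1 of 4 keratinocyte markers, and Pdgfra in 1 list as the only 1 of 5 fibroblast markers. Cdh1 itself had no promoter peak in any of the 9 lists, so its promoter gave no check of the genotype labels. Peaks in the Cdh1 window covered 6.47 and 6.36 kb (male Ecad), 9.34 and 8.13 kb (female Ecad), 4.79 and 7.85 kb (male ΔEcad) and 2.25, 2.92 and 3.16 kb (female ΔEcad). Ma_1456 thus lay within the range of the Ecad lines.

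The sequences below show the promoters of the genes on which the results turn and 2 of the 3 distal regions that hold an AP-1 site. The 250 bases upstream of the start site were read from the RefSeq promoter table (build GRCm38.p6), in which 9 of the 10 genes had an entry. Fos (chr12:85473640-85473889, plus strand) and Jun (chr4:95052223-95052472, minus strand) are shown because their promoters were marked in all 9 lists, Junb (chr8:84978749-84978998, minus strand) because its promoter differed most between groups, and Maff (chr15:79347270-79347519, plus strand, upstream of the second of its RefSeq starts) because it holds the only full cyclic AMP response element of the set. Capitals mark TGACATCA in Jun, the element through which JUN and ATF proteins are known to bind its promoter, and TGACGTCA, the cyclic AMP response element, in Maff.
Fos: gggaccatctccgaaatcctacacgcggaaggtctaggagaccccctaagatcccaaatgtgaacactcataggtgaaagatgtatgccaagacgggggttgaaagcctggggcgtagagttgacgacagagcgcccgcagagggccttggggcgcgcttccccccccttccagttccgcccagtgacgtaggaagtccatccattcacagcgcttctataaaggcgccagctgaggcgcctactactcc
Jun: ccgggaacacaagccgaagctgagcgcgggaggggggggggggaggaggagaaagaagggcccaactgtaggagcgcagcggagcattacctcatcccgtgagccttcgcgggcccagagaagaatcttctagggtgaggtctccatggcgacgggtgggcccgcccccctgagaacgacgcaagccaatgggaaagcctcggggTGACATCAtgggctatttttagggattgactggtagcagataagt
Junb: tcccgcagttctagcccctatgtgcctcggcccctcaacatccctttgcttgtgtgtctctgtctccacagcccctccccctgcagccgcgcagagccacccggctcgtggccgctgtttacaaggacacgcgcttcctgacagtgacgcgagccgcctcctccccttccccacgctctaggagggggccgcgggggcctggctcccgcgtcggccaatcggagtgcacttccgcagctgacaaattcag
Maff: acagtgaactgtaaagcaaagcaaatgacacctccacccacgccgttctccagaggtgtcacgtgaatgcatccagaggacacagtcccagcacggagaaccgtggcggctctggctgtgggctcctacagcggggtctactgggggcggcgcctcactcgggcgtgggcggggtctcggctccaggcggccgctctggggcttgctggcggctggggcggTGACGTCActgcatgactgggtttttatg

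The Jun element began 45 bases before the start site. Letters were searched on both strands, and TGACATCA or its complement TGATGTCA stood in 2 of the 11 RefSeq windows of these genes, the other being a second Maff window, against 2.93% of 32851 promoter windows of the same length. TGACGTCA stood in 1 of the 11 windows, at 29 bases before the start of Maff, against 1.55% of all. The AP-1 site itself, TGACTCA or TGAGTCA, stood in 0 of the 11 windows and in 4.46% of all, and the CArG box, to which serum response factor binds, in 0 of the 11 and 1.47% of all. An absent match says only that these letters are not in the 250 bases.

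Of the regions at these genes, 20 lay more than 1 kb from the start sites of their own gene and of other protein-coding genes. AP-1 letters were found around the summit of 3 of these 20, in windows of 200 bases. Genome-wide the share was 3.83% of 43305 regions without an annotated start site of any gene type within 1 kb. That definition is stricter, because the 20 regions may include starts of non-coding transcripts. Both regions printed here, the plus strand of chr8:84985550-84985749 upstream of Junb and of chr19:5433357-5433556 upstream of Fosl1, overlap no annotated exon, and the capitals mark the AP-1 letters. They are shown because the same 5 of the 9 lists called both, as described with those genes, and the Fosl1 region was chosen after its values were seen.
Junb upstream: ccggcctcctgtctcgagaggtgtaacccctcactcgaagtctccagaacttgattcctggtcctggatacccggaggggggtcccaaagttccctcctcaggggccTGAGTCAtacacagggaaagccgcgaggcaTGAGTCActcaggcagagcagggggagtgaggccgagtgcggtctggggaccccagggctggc
Fosl1 upstream: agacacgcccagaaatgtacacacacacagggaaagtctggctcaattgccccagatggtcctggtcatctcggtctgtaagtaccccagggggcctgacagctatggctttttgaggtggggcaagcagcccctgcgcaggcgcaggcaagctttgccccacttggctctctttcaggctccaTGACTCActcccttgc

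Promoter strength was expressed as the percentile of the peak's −log10 q within its own list, with 0 where no promoter peak was called. Percentiles do not depend on the scale of −log10 q but still depend on list length. The median percentile of all called promoters was 60.3 in Ma_1069, the shortest list, and 74.7 in Ma_1007, the longest. With only the 20741 strongest peaks of each list, the Atf3 promoter of Ma_1007 stood at 52.7 in place of 76.5. The promoters of Fos, Fosl2 and Jun were called in all 9 lists, those of Junb, Jund and Atf3 in 8, Maff in 4, Fosb in 3, Fosl1 in 1 and Batf3 in 0. Across the genome 10.7% of annotated genes and 21.1% of protein-coding genes were called in all 9 lists. Each line called 5 to 8 of the 10 promoters, with 5 or 6 in the female ΔEcad lines and 6 to 8 in the others. Of the 16471 genes called in any list, the female ΔEcad lines called 46 to 60.5% and the others 67.7 to 87.6%.

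**Figure D1:**
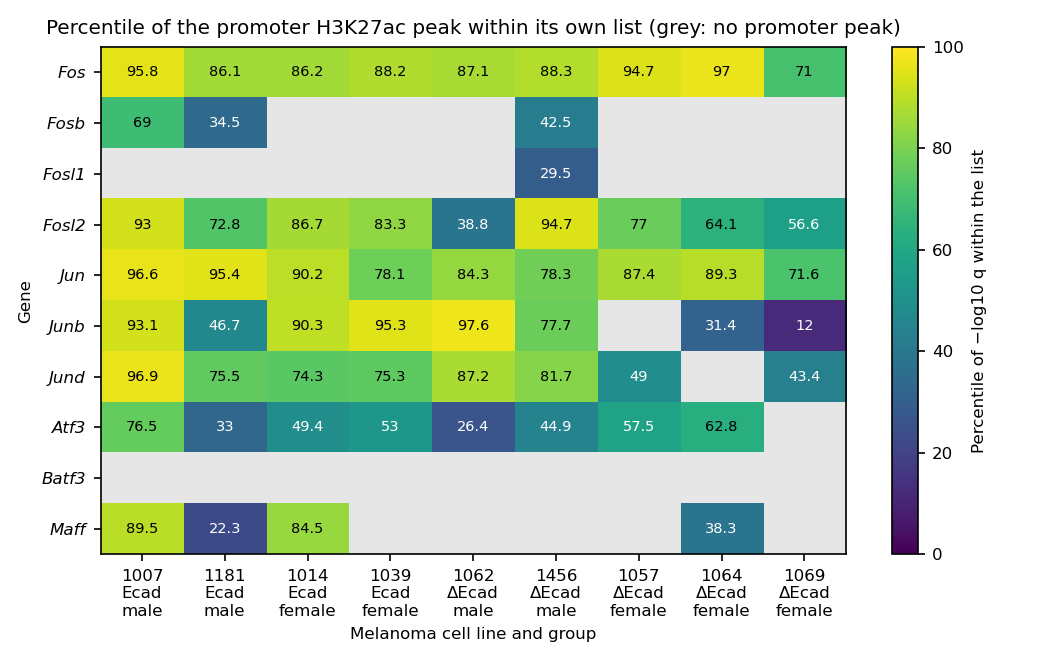
Heatmap of the percentile of the promoter H3K27ac peak within its own list, with the 10 genes as rows and the 9 lines, labelled with genotype and sex, as columns; grey cells had no promoter peak. Fos and Jun stayed between 71 and 97 in every line. Junb had no promoter peak in Ma_1057 and was at 31.4 in Ma_1064 and 12 in Ma_1069, the female ΔEcad lines, and Batf3 was grey throughout.

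Fos, the immediate early partner of JUN, lies at chr12:85473890-85477273 (mm10). Its promoter peak stood at percentile 95.8 and 86.1 (male Ecad), 86.2 and 88.2 (female Ecad), 87.1 and 88.3 (male ΔEcad) and 94.7, 97 and 71 (female ΔEcad). The Fos promoter was thus among the stronger peaks of every list, and the highest value and the lowest both came from female ΔEcad lines (Ma_1064 and Ma_1069). The enrichment over local background at this peak, as deposited, ranged from 6.65-fold in Ma_1069 to 29.7-fold in Ma_1007.

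The length of acetylated chromatin around Fos separated the groups and the promoter percentile did not. Peaks in the Fos window covered 5.02 and 4.95 kb (male Ecad), 5.28 and 6.2 kb (female Ecad), 4.78 and 6.38 kb (male ΔEcad) and 2.37, 2.93 and 0.326 kb (female ΔEcad). Every female ΔEcad line lay below every other line. The promoter region of Fos (chr12:85471500-85475948) was covered over 2.08 to 4.4 kb in the other 6 lines but the female ΔEcad lines had 1.65, 1.57 and 0.326 kb, and its peak in Ma_1069 stopped 15 bp short of the start site. A region 12.6 kb downstream of the Fos start (chr12:85485687-85487739) was called in 7 lists, with its highest percentile, 91.5, in Ma_1456, and was missing from Ma_1057 and Ma_1069. A region 18.1 kb upstream was called in 8 lists at percentiles from 0.398 in Ma_1064 to 81 in Ma_1181, and a weaker one 6.01 kb upstream was called in both female Ecad lines and in Ma_1062.

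Fosb encodes a FOS protein with strong induction in neurons and bone (chr7:19302696-19310051, minus strand). Peaks covered no more than 1.84 kb of its window in any line, the least of the 9 genes with a peak. The covered length was 1.84 and 0.61 kb (male Ecad), 0.678 and 1.17 kb (female Ecad), 1.02 and 1.46 kb (male ΔEcad) and 0.33, 0.277 and 0 kb (female ΔEcad). The start site itself carried a peak in Ma_1007 (percentile 69) and Ma_1456 (42.5). A second region, 1.63 kb into the gene (chr7:19308270-19308602, overlapping an annotated Fosb exon), was called in all 4 Ecad lists at percentiles of 24.9 to 47.7 and in 0 of the 5 ΔEcad lists. Of 59668 merged regions, 0.551% had that pattern, and 2 of the 41 regions at these genes did. The peaks of this region lay 998 to 1023 bp from the nearest Fosb start, on both sides of the 1 kb limit, and it counted as a promoter peak in Ma_1181 alone. A region 8.94 kb downstream of the start, at the transcript Gm26802, was called in every line but Ma_1069, and one 17 kb upstream in Ma_1007, Ma_1039, Ma_1062 and Ma_1456.

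Fosl1, which encodes FRA1, the FOS protein most tied to invasive cells, lies at chr19:5447547-5455946. Its own promoter was called in Ma_1456 alone, at percentile 29.5. The Fosl1 window was marked in all 9 lists, mostly at the promoters of the neighbouring genes Ccdc85b, Fibp and Efemp2. Coverage of the window was 7.12 and 3.51 kb (male Ecad), 3.87 and 6.06 kb (female Ecad), 4.06 and 5.21 kb (male ΔEcad) and 0.91, 2.35 and 0.845 kb (female ΔEcad). The Ccdc85b promoter was called in all 9 lists, the first Fibp region and the Efemp2 promoter in 7 each, and a region shared by Fibp and Ctsw (chr19:5463848-5465120) in all 4 Ecad lists and 0 of 5 ΔEcad lists. The distal region printed above, 14.1 kb upstream of Fosl1, was called in Ma_1007, Ma_1014, Ma_1039, Ma_1062 and Ma_1456 at percentiles of 17.7 to 81.6, and in neither Ma_1181 nor any female ΔEcad line. It was the only region of the window that lay at no promoter of a protein-coding gene.

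Fosl2, which encodes FRA2, lies at chr5:32135801-32157842. Its promoter was called in every list, at percentile 93 and 72.8 (male Ecad), 86.7 and 83.3 (female Ecad), 38.8 and 94.7 (male ΔEcad) and 77, 64.1 and 56.6 (female ΔEcad). Both the highest and the lowest value came from the male ΔEcad pair. Coverage followed no group either, at 4.74 and 1.73, 1.92 and 3.48, 1.21 and 4 kb in the same order of groups and 2.39, 2.16 and 1.34 kb in the last group. The largest and the smallest coverage differed 3.9-fold, the narrowest range of the 8 genes with a peak in every line. The only region beside the promoter, 3.84 kb into the gene, was called in Ma_1007 and Ma_1456.

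**Figure D2:**
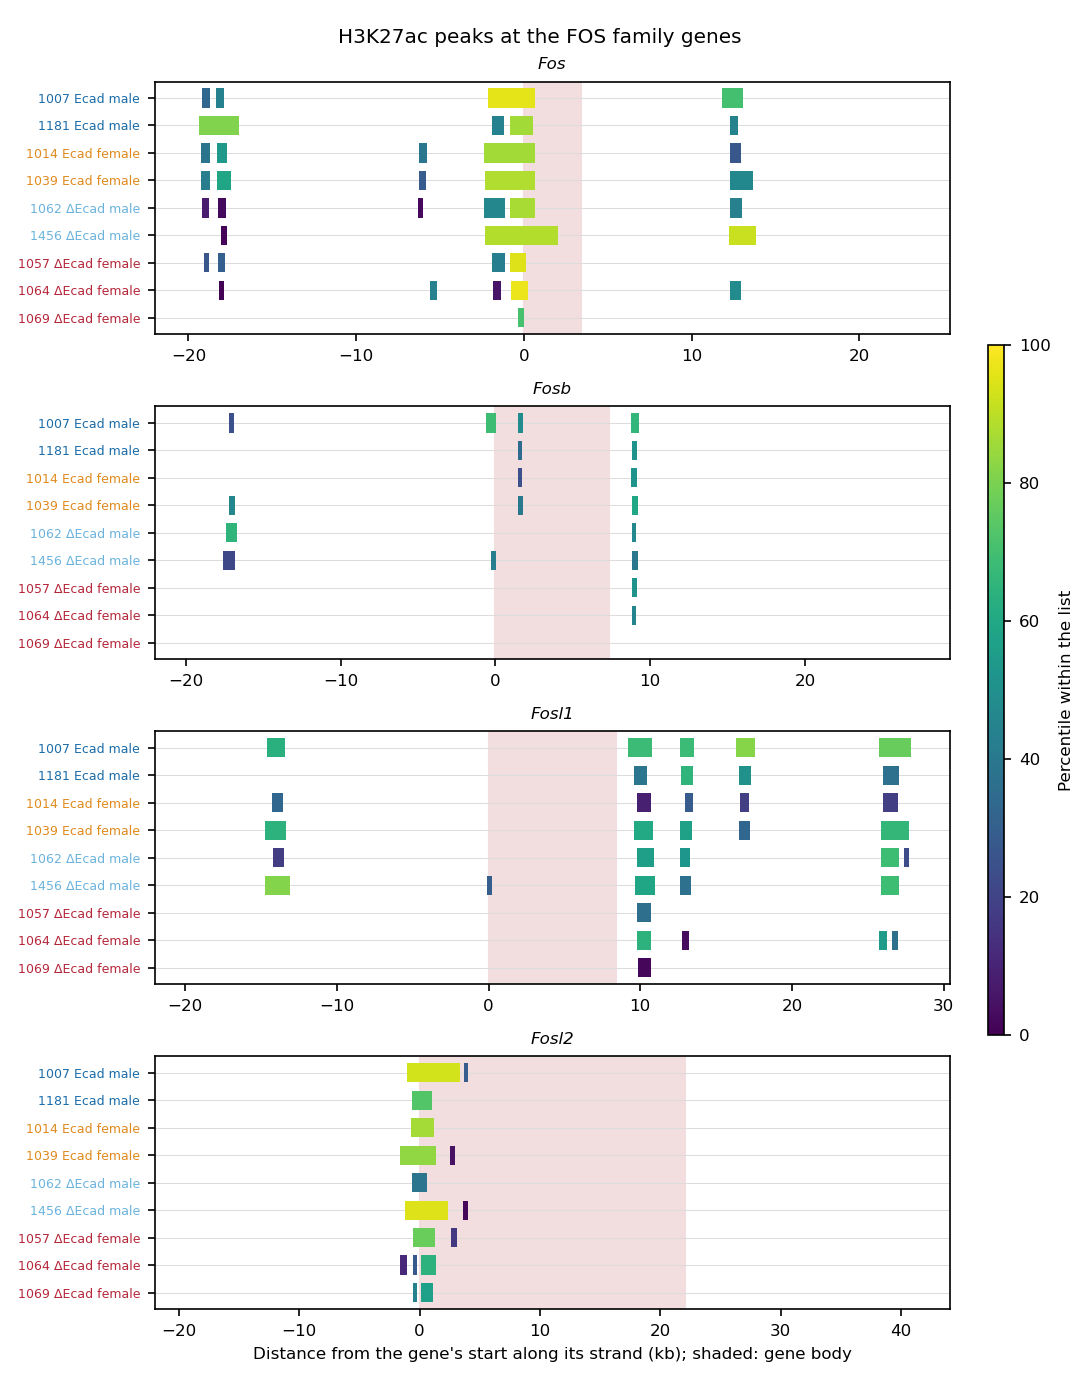
Position of every H3K27ac peak around Fos, Fosb, Fosl1 and Fosl2, with the distance from the start of the gene in kb along its strand on the x axis, 1 row per line and the colour giving the percentile of the peak within its list; the gene body is shaded. The Fos promoter peak is narrower in the 3 female ΔEcad rows, and the peak 1.63 kb into Fosb is present in the 4 Ecad rows and in 0 of the 5 ΔEcad rows.

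Among the JUN genes, Jun (chr4:95049034-95052222, minus strand) encodes c-JUN, the strongest activator of the family. Its promoter was called in every list, at percentile 96.6 and 95.4 (male Ecad), 90.2 and 78.1 (female Ecad), 84.3 and 78.3 (male ΔEcad) and 87.4, 89.3 and 71.6 (female ΔEcad). These values did not separate the genotypes or the sexes. Coverage separated the genotypes, at 8.77 and 9.6 kb (male Ecad), 3.89 and 3.75 kb (female Ecad), 3.3 and 3.4 kb (male ΔEcad) and 1.97, 3.16 and 0.645 kb (female ΔEcad). The 4 Ecad lines lay above the 5 ΔEcad lines, and the male Ecad lines lay apart from all others.

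Single peaks of 6.74 and 6.44 kb spanned the Jun start in the male Ecad lines. In Ma_1014 the peak was 3.89 kb long, and the other lines had separate peaks upstream and, save Ma_1069, downstream of the start, which itself lay 51 to 397 bp outside the nearest of them. A region 6.05 kb downstream of the Jun start, beyond the end of the gene and inside the transcript Gm12703 (chr4:95044786-95047322), was called at percentile 75.4 and 82.2 in the male Ecad lines and in no other list. Over the genome 1.51% of merged regions were called by these 2 lists alone. A further region 13.7 kb downstream was called in Ma_1181 alone.

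Junb encodes JUNB, which restrains c-JUN at many genes and is itself an early response gene (chr8:84974484-84978718, minus strand). Its promoter peak stood at percentile 93.1 and 46.7 (male Ecad), 90.3 and 95.3 (female Ecad) and 97.6 and 77.7 (male ΔEcad). Of the female ΔEcad lines, Ma_1064 had 31.4, Ma_1069 had 12 and Ma_1057 had no promoter peak. The groups did not overlap, and Ma_1181 was the nearest to the female ΔEcad lines.

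Acetylation around Junb was broad in 5 of the lines. The promoter region (chr8:84974627-84983202) was 1 unbroken peak of 8.58 kb in Ma_1007, 6.03 and 6.24 kb (female Ecad) and 6.23 and 5.48 kb (male ΔEcad), 4 separate peaks of 2.6 kb in total in Ma_1181, and 0.363 and 0.392 kb in Ma_1064 and Ma_1069. Covered length over the whole window was 16.8 and 4.49 kb (male Ecad), 10.2 and 11.4 kb (female Ecad), 10.7 and 8.82 kb (male ΔEcad) and 1.52, 1.35 and 1.86 kb (female ΔEcad). Most of what remained in the female ΔEcad lines was the promoter of the neighbours Prdx2 and Rnaseh2a, 9.5 kb downstream, which was called in all 9 lists over 0.986 to 2.17 kb. With only 2 kb on either side, a window chosen after seeing the data that holds none of that neighbouring promoter, the female ΔEcad lines had 0, 0.363 and 0.392 kb at Junb and the other 6 lines 1.9 to 6.09 kb.

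The region with 2 AP-1 sites lies 6.93 kb upstream of Junb (chr8:84983494-84986678) and overlaps no gene. It was called at percentile 91 in Ma_1007, 50.2 and 70.2 in the female Ecad lines, and 82 and 65.9 in the male ΔEcad lines, and was absent from Ma_1181 and from the female ΔEcad lines. The same 5 lists called the promoter of Hook2, 11.5 kb upstream. Together with the region upstream of Fosl1 these made 3 of 41 regions that were called in at least 5 of the other 6 lists and in no female ΔEcad list, a pattern held by 3.17% of all merged regions.

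Jund, which encodes JUND, the most constantly expressed JUN protein, lies at chr8:70698949-70700616. Its promoter peak stood at percentile 96.9 and 75.5 (male Ecad), 74.3 and 75.3 (female Ecad) and 87.2 and 81.7 (male ΔEcad), and 49 in Ma_1057, 43.4 in Ma_1069 and no call in Ma_1064. Again the female ΔEcad lines lay below all others. The covered length was 5.29 and 4.66, 4.61 and 3.69, and 3.97 and 2.4 kb in the same order of groups, against 1.01, 0.4 and 0.526 kb (female ΔEcad). In those 3 lines the peaks lay inside the gene, with their nearest edges 125, 1016 and 948 bp from the start in Ma_1057, Ma_1064 and Ma_1069, and no peak was called upstream of it. The peak of Ma_1064, at percentile 22.5, thus fell just outside the 1 kb limit. A weak region 19.4 kb upstream, the third distal region with AP-1 letters, stood at percentiles of 7.24 and 6.7 and was called in both female Ecad lines alone, and one 3.75 kb downstream of the start in Ma_1007 alone. RefSeq places the Jund start upstream of the annotated start used here, and with the RefSeq start, an alternative chosen after seeing the data, the promoter was called in 6 of 6 other lines and in 0 of 3 female ΔEcad lines (Fisher's exact p = 0.0119). With the annotated starts, 4.02% of the 16471 genes called in any list had that pattern of calls. With 2 kb in place of 1 kb around the annotated start, the Jund promoter was called in all 9 lists.

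**Figure D3:**
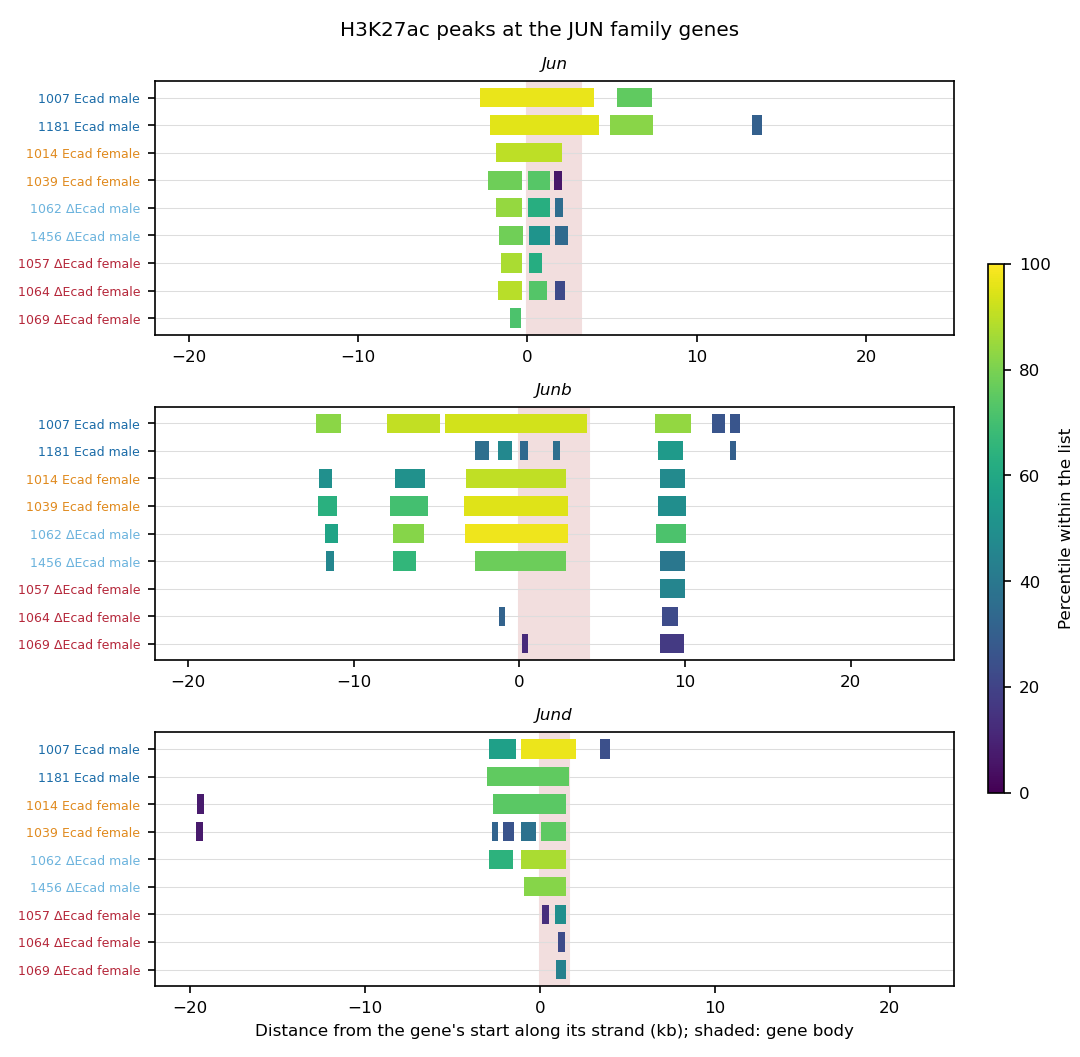
Position of every H3K27ac peak around Jun, Junb and Jund, with the distance from the gene start in kb along its strand on the x axis, 1 row per line and the colour giving the percentile of the peak within its list; the gene body is shaded. Peaks extend past the end of Jun in the 2 male Ecad rows, and the broad Junb and Jund promoter peaks are reduced to short stretches or missing in the 3 female ΔEcad rows.

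Atf3, a stress-induced repressor and activator of the ATF group, lies at chr1:191170296-191218039 on the minus strand. Its peak lay 35 kb inside the longest transcript, at the start sites of its shorter transcripts, at percentile 76.5 and 33 (male Ecad), 49.4 and 53 (female Ecad) and 26.4 and 44.9 (male ΔEcad), and 57.5 and 62.8 in Ma_1057 and Ma_1064, with no call in Ma_1069. No list held a peak within 1 kb of the most upstream start. The only region of the window called in all 9 lists lay 13 kb upstream and overlaps no gene (chr1:191228089-191233046). Its percentile was 65 and 61.6 (male Ecad), 51.6 and 77.2 (female Ecad), 87.8 and 95.4 (male ΔEcad) and 95.1, 97.9 and 48.5 (female ΔEcad). The region did not separate the genotypes, because Ma_1069, the shortest list, lay below all Ecad lines and the other ΔEcad lines lay above them. How many merged regions have that pattern was not counted.

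Coverage of the Atf3 window was 3.75 and 2.81 kb (male Ecad), 2.81 and 3.38 kb (female Ecad), 4.12 and 8.15 kb (male ΔEcad) and 4.2, 5.44 and 0.934 kb (female ΔEcad). A further region 6.57 kb upstream, at the transcript D730003I15Rik, was called in 8 lists, at percentiles of 64.3 to 90.2, and was missing from Ma_1069. A weak second peak near the internal starts, at percentile 7.56, was called in Ma_1064 alone, and a region past the end of the gene in Ma_1456 alone.

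Batf3, which lies beside Atf3 on chromosome 1 and is known for its role in dendritic cells, had 0 kb covered in every line. Maff (chr15:79346621-79359076), which encodes a small MAF protein without a transactivation domain, had a promoter call in 4 lines. The promoter stood at percentile 89.5 and 22.3 in the male Ecad lines, 84.5 in Ma_1014, 38.3 in Ma_1064 and had no call in the other 5 lines. Coverage was 15.2 and 6.45 kb (male Ecad), 4.48 and 1.28 kb (female Ecad), 2.84 and 1.01 kb (male ΔEcad) and 3.02, 3.22 and 2.84 kb (female ΔEcad). A region 18.9 kb upstream, at the promoter of Pla2g6, was called in all lines over 0.935 to 4 kb. In Ma_1007, Ma_1181 and Ma_1062 part of that length lay outside the window and is not in the coverage. A distal region 10.8 kb upstream of Maff (chr15:79333185-79337425) was called in both male Ecad lines (percentiles 97.4 and 80), in Ma_1062 (65.2) and in all 3 female ΔEcad lines (82.4, 83.6 and 72.3), and in neither female Ecad line. The share of all merged regions with that pattern was not counted. Within the gene, 4.66 kb from its start, a region was called in Ma_1007 and Ma_1014 only.

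**Figure D4:**
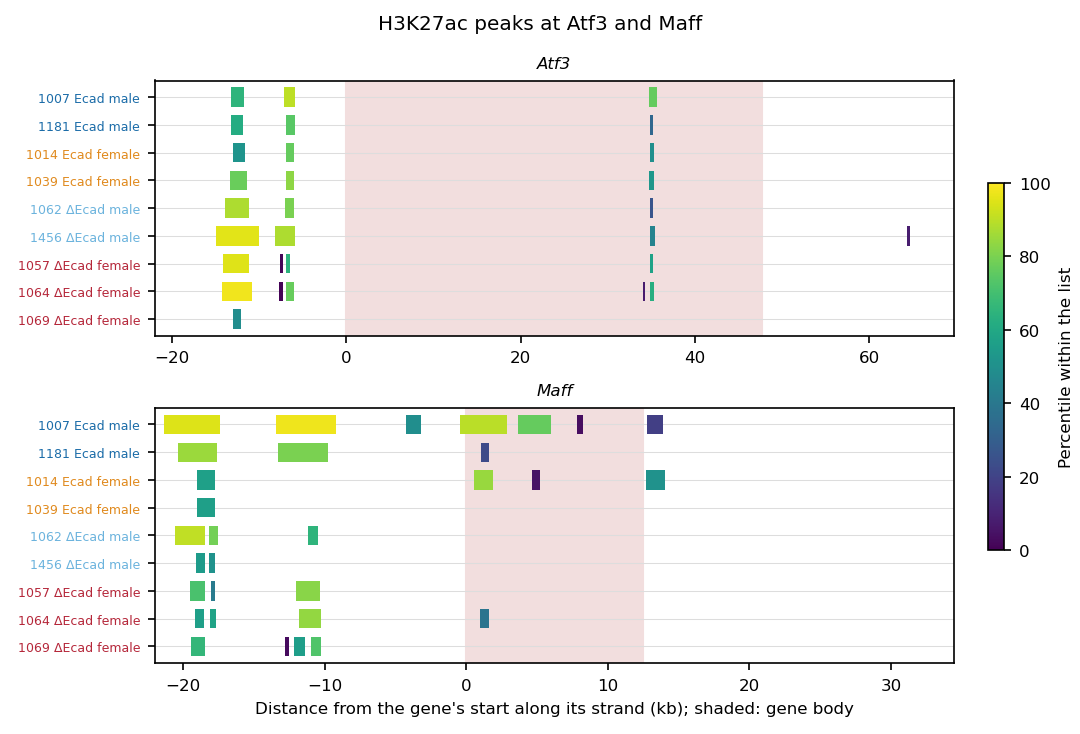
Position of every H3K27ac peak around Atf3 and Maff, with the distance from the gene start in kb along its strand on the x axis, 1 row per line and the colour giving the percentile of the peak within its list; the gene body is shaded. The region 13 kb upstream of Atf3 is present in all 9 rows and strongest in Ma_1064. The region 10.8 kb upstream of Maff is present in both male Ecad rows, in Ma_1062 and in the 3 female ΔEcad rows, and is absent from both female Ecad rows and from Ma_1456.

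In the comparison of the 3 female ΔEcad lines with the other 6 lines, 5 of the 9 testable genes had a shorter covered length at an unadjusted exact permutation p under 0.05, against 20.6% of 33426 genes. The two-sided test over all 84 choices of 3 lines cannot go below 0.0119, and after Benjamini-Hochberg adjustment over all genes 0 genes in the genome reached 0.05. Fos covered 1.88 ± 1.37 kb in the female ΔEcad lines (SD, n = 3) and 5.43 ± 0.685 kb in the others (SD, n = 6; exact p = 0.0119, adjusted p = 0.112). For Fosl1 the means were 1.37 ± 0.851 and 4.97 ± 1.42 kb, and for Junb 1.58 ± 0.259 and 10.4 ± 4 kb, with the same exact p for both. Jund had 0.646 ± 0.323 against 4.1 ± 1.01 kb at that exact p, and Fosb 0.202 ± 0.177 against 1.13 ± 0.469 kb at an exact p of 0.0357 (adjusted p = 0.184), which was 0.0714 without any 1 of the female ΔEcad lines. Junb and Jund thus differed most in proportion, 6.6-fold and 6.35-fold. Jun was below all other lines as well but had an exact p of 0.0833, and the differences for Fosl2, Atf3 and Maff were −0.885, −0.645 and −2.18 kb with exact p of 0.381 to 0.69.

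Altogether the 3 female ΔEcad lines lay below every other line at 6 of the 9 genes, against 17.8% of all genes. With 10 kb on either side Fos and Fosb no longer separated the groups. Ma_1064 then had 2.63 kb at Fos against 2.57 kb in Ma_1181. At Fosb, Ma_1057 had 0.33 kb against 0.279 kb in Ma_1062. In that window 4 genes had a p under 0.05, against 20.2% of all genes, and Fosb had an exact permutation p of 0.0952. The median ratio of the female ΔEcad mean to the mean of the others was 0.345 over the 9 genes and 0.49 over 32630 genes. With only the 20741 strongest peaks of each list, 5 genes again had a p under 0.05 against 18.7% of all genes. Leaving out the longest and the shortest list, Ma_1007 and Ma_1069, left 4 genes against 11.4% of all, an alternative chosen after seeing the data. With 2 kb instead of 20 kb on either side of the gene 3 genes were counted against 21.1% of all, and Fosl1, whose window then holds only its own promoter and part of the Ccdc85b region, had an exact p of 0.0714 and Fosb one of 0.0952.

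**Figure D5:**
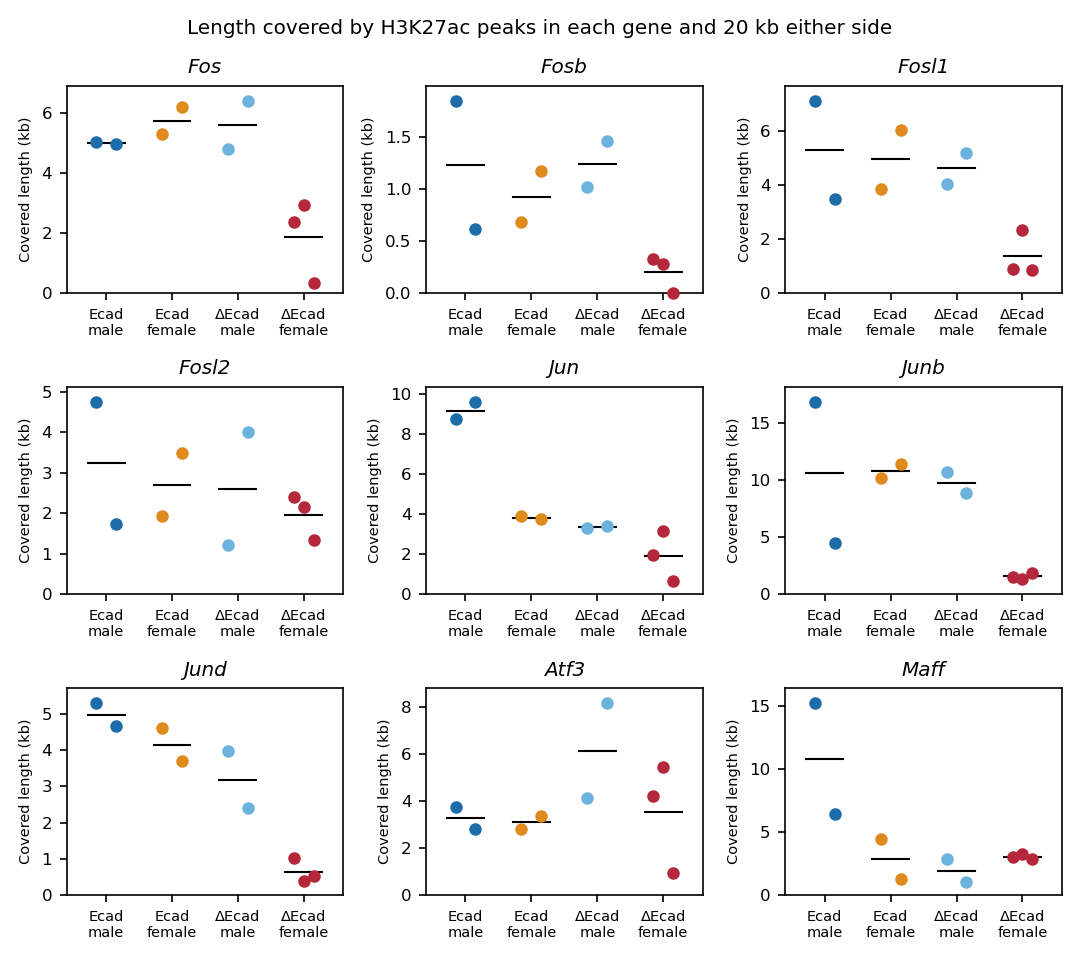
Length covered by H3K27ac peaks, in kb on the y axis, in each gene and the 20 kb on either side for the 9 genes with a peak; each point is 1 line, the horizontal bar is the mean of the group, and the x axis gives the 4 groups of genotype and sex. The 3 female ΔEcad points lie below all other points for Fos, Fosb, Fosl1, Jun, Junb and Jund and overlap the others for Fosl2, Atf3 and Maff.

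For the promoter percentile in the same comparison, 2 of 9 genes had a lower value at an exact p under 0.05, near the background of 22.1% of 16471 genes, and at both every female ΔEcad line was below every other line, against 14.8% of all. These were Junb, at 14.5 ± 15.8 (SD, n = 3) against 83.5 ± 19.3 (SD, n = 6; exact p = 0.0119, adjusted p = 0.0925), and Jund, at 30.8 ± 26.8 against 81.8 ± 8.9 at the same exact p. For the other 7 genes the exact p lay between 0.393 and 1. When a peak was counted only if its summit lay within 1 kb of the start, the Junb and Jund differences were −2.01 and −2.28 at an exact p of 1, and the Junb promoter was then called in Ma_1181 and Ma_1069 alone. In promoter calls 0 of 9 genes had a Fisher's exact p under 0.05, against 7.43% of genes, and the smallest was 0.333, for Junb, Jund and Atf3, each called in 6 of 6 other lines and in 2 of 3 female ΔEcad lines.

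Between the 5 ΔEcad and the 4 Ecad lines the covered length was lower at an exact p under 0.05 for 2 of 9 genes, against 15.1% of all genes. With 10 kb in place of 20 kb on either side the count was 5 of 9, against 14.7%. Jun covered 2.5 ± 1.18 kb in the ΔEcad lines (SD, n = 5) and 6.5 ± 3.11 kb in the Ecad lines (SD, n = 4), the smallest p that 126 splits allow (exact permutation p = 0.00794, adjusted p = 0.236). It was the only 1 of the 9 genes whose ΔEcad lines all lay below the Ecad lines, which 5.7% of genes did. Jund covered 1.66 ± 1.51 against 4.56 ± 0.659 kb (exact p = 0.0238, adjusted p = 0.284), and this p was 0.0536 to 0.0571 in 7 of the 9 tests that left out 1 line, all but those without Ma_1039 or Ma_1062. Atf3 alone had the longer mean in the ΔEcad lines, by 1.38 kb (exact p = 0.365).

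Among promoter percentiles of the 2 genotypes 0 of 9 genes had an exact p under 0.05, against 17.1% of all genes, and 0 separated the genotypes, against 8.15%. Maff had the smallest p, at 7.66 ± 17.1 in the ΔEcad lines against 49.1 ± 44.8 in the Ecad lines (exact p = 0.127), followed by Jund (exact p = 0.151). Promoter calls gave 0 of 9 genes by Fisher's exact test, against 5.2%, and the smallest p were 0.206 for Maff and 0.524 for Fosb.

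Between the 5 female and the 4 male lines 0 of 9 genes had a covered length at an exact p under 0.05, against 9.18% of all genes, and 0 separated the sexes, against 3.67%. The nearest were Jun, at 2.68 ± 1.37 kb in females and 6.27 ± 3.39 kb in males (exact permutation p = 0.0714), and Fosb (exact p = 0.0794). Jun passed with equal list length (exact p = 0.0317) and with a −log10 q of at least 10 (exact p = 0.0397), and its p was 0.0536 to 0.286 in the other alternatives. Promoter percentiles gave 2 of 9 genes against 10.5%. Jund was at 48.4 ± 30.7 in the female and 85.3 ± 9.11 in the male lines (exact p = 0.0397, adjusted p = 0.435) and was the only 1 to separate the sexes, against 4.54% of all genes, while Fosb was at 0 in all female lines and at 36.5 ± 28.4 in the male lines (exact p = 0.0476). With each line left out in turn, Fosb passed only without Ma_1062, and its exact p was 0.107 to 0.143 without any other line, for the percentile and for the call. Without Ma_1007 the Jund p was 0.0893 and without Ma_1062 it was 0.0536, and with summits within 1 kb the Jund difference changed sign, to 32.1 (exact p = 0.167). Promoter calls gave 1 of 9 genes against 2.65%, again Fosb, called in 3 of 4 male and 0 of 5 female lines (Fisher's exact p = 0.0476). With 2 kb in place of 1 kb the p of Fosb between the sexes was 0.524, and between the genotypes, at 1 of 5 ΔEcad and 4 of 4 Ecad lines, 0.0476 by the same exact test.

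All 3 comparisons divide the same 9 lists and are not independent of each other. Within a sex, the mean covered length of the ΔEcad minus that of the Ecad lines was −9.18 kb in females and −0.886 kb in males for Junb, −1.9 and −5.83 kb for Jun, and −3.86 and 0.601 kb for Fos. Whether these differences depend on sex was not tested.

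The call pattern of each gene over the 9 lists was shared with other genes. The pattern of Maff was held by 20 other genes, that of Junb by 92, Fosb by 96, Jund by 237, Fosl1 by 270 and Atf3 by 949, and 5936 other genes were called in all lists like Fos, Fosl2 and Jun. No statement about shared control follows from these counts.

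Of the 10 other basic leucine zipper genes of the AP-1, ATF and MAF groups, 5 to 6 promoters were called in the female ΔEcad lines and 8 to 9 in the others, with Batf2, Atf2, Atf7 and Mafg called in all 9 lists. Beside these calls and those of the gene lists below stand the shares over all genes called in any list. Those were 46 to 60.5% in the female ΔEcad lines and 67.7 to 87.6% in the others. The covered length of 2 of the 10 was lower in the female ΔEcad lines at an exact p under 0.05, against 20.6% of all genes, and that of 2 was lower in the ΔEcad than in the Ecad lines, against 15.1%. Both counts were near the background. By promoter percentile, 1 of 9 testable genes was lower in the female ΔEcad lines at an exact p under 0.05, against 22.1% of all genes. Between ΔEcad and Ecad lines 4 of 9 were lower by that measure, against 17.1% of all genes. The genes below are those with the smallest p of their list. Jdp2, which encodes a repressor of AP-1, was called in 6 of 6 other lines and in 0 of 3 female ΔEcad lines (Fisher's exact p = 0.0119). Of the 16471 genes called in any list, 4.02% had that same pattern. The difference of the Jdp2 promoter percentile between ΔEcad and Ecad lines was −65.5 points (exact permutation p = 0.00794). Between the same groups Maf differed by −2.3 kb in covered length (exact p = 0.00794), Creb5 by −40.4 percentile points at its promoter (exact p = 0.0238) and Mafg by −20.8 points (exact p = 0.0476).

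Among 12 kinases and factors upstream of these genes, 5 to 10 promoters were called in the female ΔEcad lines and 10 to 12 in the others. The covered length of 3 was lower in the female ΔEcad lines at an exact p under 0.05, near the 20.6% of all genes. By promoter percentile 3 of the 12 were lower there as well, near the 22.1% of all genes. Srf, the factor that binds the CArG box, differed there by −49.7 percentile points at its promoter and the p38 kinase gene Mapk14 by −35.6 points (exact p = 0.0119 for each). Of 12 immediate early genes outside the AP-1 family, 8 to 10 promoters were called in the female ΔEcad lines and 10 to 11 in the others. The covered length of 2 of the 12 was lower in the female ΔEcad lines at an exact p under 0.05, which is below the 20.6% of all genes. Between ΔEcad and Ecad lines 5 of the 12 were lower by that measure, against 15.1%, and between female and male lines 2, against 9.18%. Egr1 was the gene of that list called in 6 of 6 other lines and 0 of 3 female ΔEcad lines (Fisher's exact p = 0.0119), a pattern of 4.02% of genes. Zfp36, which encodes an mRNA decay factor, differed by −5.29 kb in covered length between the female ΔEcad and the other lines (exact p = 0.0119), Ier3 by −3.43 kb between ΔEcad and Ecad lines and Egr2 by −1.7 kb between female and male lines (exact p = 0.00794 for each).

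Of 13 genes known as AP-1 targets, 4 to 5 promoters were called in the female ΔEcad lines and 6 to 7 in the others, and 6 were called in no list, among them Mmp3, Mmp9 and Mmp13. Of 11 with a peak in their window, 3 had a lower covered length in the female ΔEcad lines at an exact p under 0.05, near the 20.6% of all genes. By promoter percentile, 4 of the 7 testable genes were lower in the same comparison at an exact p under 0.05, against 22.1% of all genes. The cell surface receptor gene Cd44 differed there by −23.4 kb and the cyclin D1 gene Ccnd1 by −9.89 percentile points at its promoter (exact p = 0.0119 for each). Hmga1 was called in 6 of 6 other lines and 0 of 3 female ΔEcad lines (Fisher's exact p = 0.0119), as were 4.02% of genes called in any list. None of these p passed adjustment over all genes.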

How the data were processed

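The members and lists were chosen with earlier results of these data known. Per the labels and the methods of the study, H3K27ac reads of 9 lines were aligned to mouse GRCm38 (mm10) on the European Galaxy server, and the submitters' processing notes name Bowtie2 2.4.5, MACS2 2.2.7.1 and deepTools 3.5.1.0.0, with settings not given in the sources used here. The authors deposited 1 peak list per line. Each deposited peak has a score, which is 10 times its −log10 q cut to a whole number in at least 99.84% of peaks, a fold enrichment that is a ratio over local background, a −log10 p-value, a −log10 q-value of at least 5, and the other deposited column, the summit offset. The 4 input libraries were not analysed here, the control of each list is not given in the sources used here, and the labels name no batch. Depth is unknown, so no counting interval was possible.

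Gene bodies and start sites came from GENCODE M21. An overlap of 1 bp counted. Per gene, the covered kb, the percentile of the strongest promoter peak by −log10 q (0 without a peak) and the promoter call were compared between lines, the first 2 by two-sided exact permutation of the difference of means and calls by Fisher's exact test, with Benjamini-Hochberg adjustment over all genes with any peak. Peaks of all lists were merged into regions where they touched. All 10 members were named. Differences are given where the unadjusted p was under 0.05 or else for the 2 smallest, with own-promoter regions, the 3 other regions called in most lists, those that separate groups, and up to 4 genes per context list by smallest p. Some genes of these lists are not reported here by name. Alternatives changed the window, the promoter distance, the minimum −log10 q, the list length, the start sites or the lines used. Functions were checked on simulated data. Python 3.11.15, numpy 2.4.6, scipy 1.17.1 and matplotlib 3.10.9 were used. Separate tumours gave the lines, but each had 1 library, so p-values measure the spread between these lines.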

Additional observations from a re-analysis of the deposited data

Results flagged for a closer look

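The values below stood far from the rest of their group by Dixon's criterion, which chance meets in about 1 in 20 groups of continuous values. Of the 87 groups tested, 12 met it. That rate does not hold where every other value was 0 for no peak, as for the Fosl1, Fosb and Maff promoters below. There a single call meets the criterion whatever its value. The groups also share lines, so 12 of 87 cannot be set against that rate. No explanation was tested. Ma_1456 covered 6.38 kb at Fos among the male lines (others 4.78 to 5.02 kb), 8.15 kb at Atf3 among the lines other than female ΔEcad (others 2.81 to 4.12 kb) and 1.01 kb at Maff among the ΔEcad lines (others 2.84 to 3.22 kb). Its Fosl1 promoter, at percentile 29.5, was the only one called, which set it apart among the male, the ΔEcad and the 6 other lines, and its Fosb promoter, at 42.5, was the only one called in a ΔEcad line. Ma_1007 had the Fos promoter at 95.8 among those 6 lines (others 86.1 to 88.3) and the Jund promoter at 96.9 among the Ecad lines (others 74.3 to 75.5). Ma_1181 had the Junb promoter at 46.7 among the Ecad lines (others 90.3 to 95.3). The Atf3 promoter was at 0, without a peak, in Ma_1069 among the female lines (others 49.4 to 62.8), and the Maff promoter at 38.3 in Ma_1064 was the only one called among the ΔEcad lines.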

How the results depend on the processing

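The numbers of AP-1 genes with a lower value at an unadjusted exact p under 0.05 were recounted under each alternative, with the share of all genes in parentheses. For covered length in female ΔEcad against the other lines the count of 5 was 4 with a window of 10 kb (20.2%). It was 3 with a window of 2 kb (21.1%) and 4 to 5 when each line was left out. Between ΔEcad and Ecad lines the count of 2 was 5 with a window of 10 kb (14.7%), 1 without the longest and the shortest list (4.65%), and 1 to 3 when each line was left out. Between female and male lines the count of 0 was 1 with equal list length (9.26%) and with a −log10 q of at least 10 (9.51%), which was Jun in both, and with windows of 50 kb (8.4%) and of 2 kb (11%). For the promoter percentile, the count of 2 in female ΔEcad against the other lines was 0 with the summit inside the window (21%), and the count of 0 between genotypes was 1 with a promoter window of 2000 bp (16.3%) and 0 to 1 when each line was left out, with Maff counted without Ma_1039. The count of 2 between the sexes was 1 with windows of 500 (11%) and of 2000 bp (9.79%), with RefSeq start sites (11.1%) and without the longest and the shortest list (2.33%), 0 with the summit inside the window (11%), and 0 to 1 when each line was left out. For promoter calls, the count of 0 in female ΔEcad against the other lines was 1 with 2000 bp (6.77%) and with RefSeq start sites (7.82%), and the count of 0 between genotypes was 1 with 2000 bp (4.87%). The count of 1 between the sexes was 0 with 500 bp (2.83%), 2000 bp (2.44%), the summit inside the window (2.75%), RefSeq start sites (2.84%) and without both lists (0.499%), and 0 to 1 when each line was left out. With the summit inside the window the signs turned for Jund in percentile between the sexes, to 32.1, and for Junb in calls between female ΔEcad and the other lines, to 16.7 percentage points. The cause of these changes was not tested. The 2 kb window, the RefSeq start sites and the removal of both lists were chosen after seeing the data. Of the values for single genes, 283 kept their direction and side of the threshold, 46 no longer passed it, 5 newly passed it and 2 changed sign. No paired analysis was possible because the labels give no replicate numbers and each line comes from its own tumour. Depth is unknown, so the smallest detectable peak in each list cannot be stated.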
